A study of Mus musculus with 4 samples.

Results

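The Zbtb genes encode proteins that join an N-terminal BTB domain to C2H2 zinc fingers. They were taken as every gene whose symbol starts with Zbtb and a digit, where symbols came from the RefSeq accession of each array probe. This gave 34 genes with 47 probes, of 16353 genes with a symbol on the array. The members were chosen by symbol alone, with no measured value in that choice, but the family as a whole was selected on the FLAG IP against Input changes described below, which were already known. The counts and medians over the family are therefore descriptions of these arrays and support nothing by themselves. The rule also takes Zbtb8os, which is named for lying opposite Zbtb8a and encodes archease, a cofactor of the tRNA ligase with no BTB domain.

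In this family the zinc fingers read DNA sequence, while the BTB domain holds the proteins together as dimers and recruits corepressor complexes such as that of BCOR. Several members set cell fate. The best known in the testis is ZBTB16 (PLZF), which maintains undifferentiated spermatogonia, the cells in which the RNA-binding protein NANOS2 acts. NANOS2 is known to bind mRNA and to bring the CCR4-NOT deadenylase to it. The data here concern the mRNAs of Zbtb genes as RNA recovered together with NANOS2, not the proteins or their DNA targets.

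The RNA came from testes of male mice at postnatal day 7 that carried the transgene Tg-Nanos2 enhancer-3xFLAG-Nanos2-3'UTR, in which a Nanos2 enhancer drives FLAG-tagged Nanos2. Both groups carry it: FLAG IP, the RNA recovered with the FLAG tag, and Input, the RNA of the starting material, with 2 biological replicates each and 4 single-colour Agilent arrays in all. The comparison asks which transcripts are recovered with NANOS2. The labels name no animals and do not say how the immunoprecipitation was done. A description field gives a fetal gonad where titles and characteristics give day 7. None of the 4 arrays came from testis without the tag, so recovery that does not depend on the tag was not measured.

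A level here is the log2 of a probe's signal after dividing by the 75th percentile of all signals on that array, so a level of 0 equals that percentile. Changes are FLAG IP minus Input on this scale, with limma standard errors (SE) and n = 2 arrays per group, and a gene was called when its p, adjusted over all 21590 features tested, was under 0.05. A higher value means a larger share of the transcript in the FLAG IP than in the Input, and does not by itself show binding by NANOS2. Each array had between 66.3% and 68.4% of its 41174 probes well above background, and the number of arrays limits the precision. Of the 34 Zbtb genes 33 passed the filter on dim probes, and these 33 were well above background on all 4 arrays. Zbtb21 was well above background on 1 Input array and on neither FLAG IP array, and was not tested. Nanos2 itself had levels of −3.87 and −3.66 in the Input and −1.94 and −2.44 in the FLAG IP. This was a change of 1.58 ± 0.22 (adjusted p = 0.010). The transgene also carries Nanos2, and whether this probe reads the transgene, the endogenous gene or both was not determined. No probe was matched to Zbtb2, Zbtb4, Zbtb10, Zbtb11, Zbtb16, Zbtb34, Zbtb42 or the non-coding Zbtb11os1, so ZBTB16 itself is not analysed here.

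Relative to the 75th percentile, 15 of the 33 tested Zbtb genes were higher in the FLAG IP, 4 were lower and 14 were not called, whereas scaling probe by probe to spike-in controls gave 2 higher and 12 lower, with the median of all tested features shifted by −1.06. Among all tested features 15.8% were called higher and 21.3% called lower, or 37.1% in either direction, and scaled probe by probe to spike-ins 2.03% were called higher and 62.4% lower. The median change of the family was 0.26, with quartiles of −0.05 and 1.10, against a median of −0.15 with quartiles of −0.58 and 0.37 for all tested features. Leaving aside Zbtb8os for its different protein, the counts were 15 higher and 3 lower of 32 and the median was 0.36. Changes ran from 2.73 for Zbtb1 to −1.70 for Zbtb20, so the family did not move as a block. Without Input replicate 1 the family median was 0.30, and without Input replicate 2 it was 0.32. In both fits the 15 genes called higher with all arrays and the 4 called lower kept their sign, but most of the calls were lost. These fits take the spread within a group from the FLAG IP arrays alone. Without FLAG IP replicate 1 the family median was 0.33, and Zbtb39 and Zbtb8os lost their calls.

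**Figure D1:**
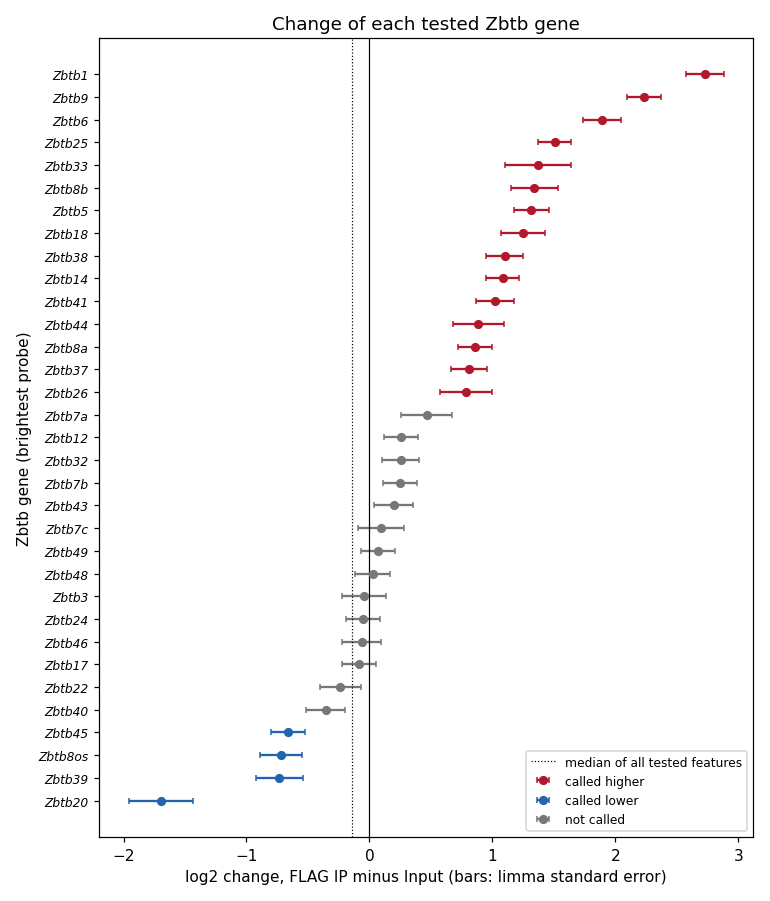
Log2 change (FLAG IP minus Input, horizontal axis) of each of the 33 tested Zbtb genes, with bars of 1 limma standard error, n = 2 arrays per group; red marks the 15 genes called higher, blue the 4 called lower and grey the 14 not called, and the dotted line is the median of all tested features at −0.15. The genes spread from −1.70 (Zbtb20) to 2.73 (Zbtb1), with the 15 genes called higher lying above all genes not called; scaling probe by probe to spike-ins would move every point by −1.06.

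The direction depends on what the arrays are scaled to, and the sources used here do not say whether the spike-ins went into the FLAG IP and Input labelling reactions in the same amount. Scaled to the median of spike-in control spots the family median was −0.29, and scaled probe by probe to spike-ins it was −0.80, while the median of all tested features moved to −0.69 and −1.20. The family median lay 0.40 above that of all tested features under both, as in the values given here. This follows by arithmetic, since such scaling shifts every change by the same amount, so it is no check. The 2 genes still higher when scaled probe by probe were Zbtb1 and Zbtb9. With the median change of all tested features then set to 0, 9 were higher and 1 was lower. All changes given below, those of other gene groups included, are thus relative to the bulk of the transcripts, and scaling to spike-ins shifts every one of them by −0.55 or −1.06.

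**Figure D2:**
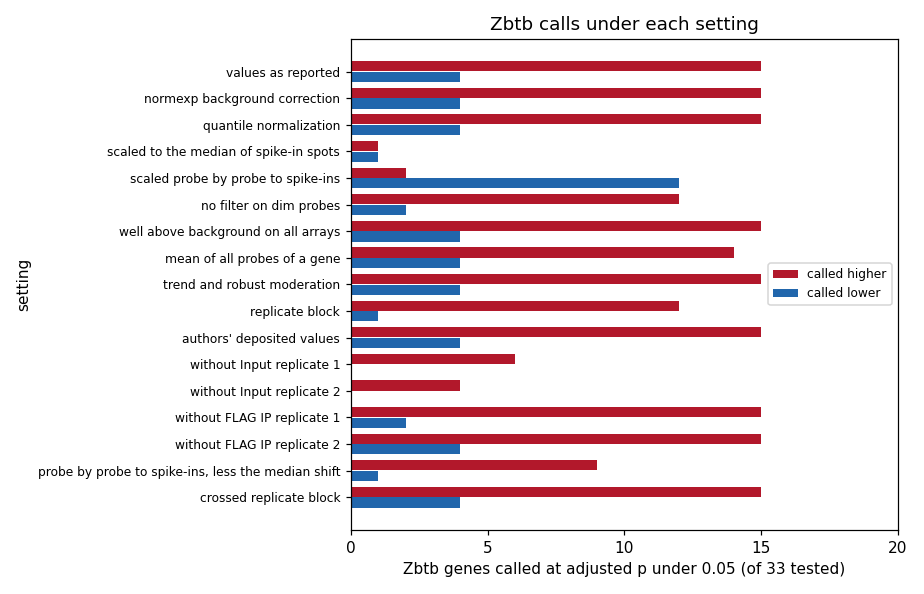
Number of the 33 tested Zbtb genes called at an adjusted p under 0.05 (horizontal axis) under each way of processing the arrays, with red bars for higher and blue bars for lower in the FLAG IP. The values as reported have 15 higher and 4 lower; leaving out an Input array leaves 6 or 4 higher and 0 lower, and scaling probe by probe to spike-ins gives 2 higher and 12 lower.

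The largest increases fell in Zbtb1, Zbtb9, Zbtb6 and Zbtb25. Zbtb1, a regulator of lymphocyte development, had levels of −1.62 and −1.69 in the Input and 0.96 and 1.19 in the FLAG IP. Its groups lay far apart compared with the spread within either. The transcript rose by 2.73 ± 0.15 (SE), or 6.62-fold, with an adjusted p of 0.0038, and was the single member called in the same direction under all 17 alternatives. Zbtb9 stood at −1.003 and −0.93 in the Input and at 1.31 and 1.22 in the FLAG IP, with replicates almost on top of each other. It rose by 2.23 ± 0.14, or 4.70-fold (adjusted p = 0.0040), and its call held under 16 of 17 alternatives. Zbtb6 stood at −4.22 and −4.02 in the Input and −2.17 and −2.29 in the FLAG IP. It rose by 1.89 ± 0.15, or 3.71-fold (adjusted p = 0.0046), and its other probe gave the same change of 1.89. Zbtb25 had levels of 2.10 and 2.03 in the Input and 3.59 and 3.55 in the FLAG IP. It rose by 1.51 ± 0.13, or 2.84-fold (adjusted p = 0.0051). Zbtb6 and Zbtb25 each kept their calls under 15 of 17 alternatives. Both lost them when arrays were scaled to spike-ins without setting the median change of all tested features to 0. The 17 alternatives are not all independent checks. Among them, the authors' deposited values repeat the scaling used here and were bound to give nearly the same changes. A filter for signal well above background on all arrays left the change of every tested member as it was.

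Zbtb33 and Zbtb38, whose proteins bind methylated DNA, were both higher. Zbtb33 encodes Kaiso, which binds methylated CpG and the catenin p120. Its levels were −2.85 and −2.65 in the Input and −1.73 and −1.03 in the FLAG IP, so the FLAG IP replicates differed by more than the Input replicates, and the rise was 1.37 ± 0.27 (2.59-fold, adjusted p = 0.022). Zbtb38, a relative of Kaiso that also binds methylated CpG, stood at −5.05 and −5.03 in the Input and −4.05 and −3.83 in the FLAG IP. It rose by 1.10 ± 0.15 (2.14-fold, adjusted p = 0.010). The related Zbtb4 had no matched probe.

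Zbtb18, Zbtb5 and Zbtb14 were higher. Their proteins are known as repressors, but so is that of Zbtb20, the member with the largest decrease. Zbtb18 (RP58), a repressor required for the development of cortical neurons, had levels of 1.06 and 0.71 in the Input and 2.19 and 2.08 in the FLAG IP. The lower FLAG IP array still lay above the higher Input array by more than 2-fold, and the rise was 1.25 ± 0.18 (adjusted p = 0.011). Zbtb5, reported to repress the cell cycle inhibitor gene Cdkn1a, stood at 1.87 and 1.70 in the Input and 3.09 and 3.12 in the FLAG IP, and rose by 1.32 ± 0.14 (adjusted p = 0.0068). Zbtb14 (ZF5), first found as a repressor of the Myc promoter, stood at −0.71 and −0.68 in the Input and 0.34 and 0.44 in the FLAG IP, and rose by 1.08 ± 0.14 (adjusted p = 0.0085). These 3 genes, with Zbtb1, Zbtb9, Zbtb6, Zbtb25 and Zbtb8b, make up the 8 members that were at least 2-fold higher in all pairs of a FLAG IP and an Input array, which held for 6.78% of all tested features.

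The remaining increases were in less studied members. Zbtb8b had levels of −0.85 and −0.92 in the Input and 0.66 and 0.25 in the FLAG IP, a rise of 1.34 ± 0.19 (adjusted p = 0.011). Zbtb41 had −2.52 and −2.65 against −1.67 and −1.46, a rise of 1.02 ± 0.15 (adjusted p = 0.012). In both genes, as in all 15 called higher, the FLAG IP values lay above the Input values, which held for 29.8% of all tested features. Zbtb44 had 0.978 and 0.996 in the Input and 1.63 and 2.11 in the FLAG IP, a rise of 0.88 ± 0.21. Zbtb8a had −0.24 and −0.27 in the Input and 0.67 and 0.53 in the FLAG IP, a rise of 0.86 ± 0.14. The FLAG IP replicates of Zbtb44 were spread more widely than those of Zbtb8a, and their adjusted p were 0.032 and 0.014. Zbtb37 had −3.58 and −3.38 in the Input and −2.66 and −2.68 in the FLAG IP, a rise of 0.81 ± 0.15 (adjusted p = 0.018). Zbtb26 had −0.14 and 0.05 in the Input and 0.51 and 0.97 in the FLAG IP, a rise of 0.79 ± 0.21 (adjusted p = 0.043), the closest to the threshold among the 15. Its call was lost without FLAG IP replicate 2. With the replicate number as a block in limma, Zbtb44, Zbtb37 and Zbtb26 were no longer called, with adjusted p of 0.056, 0.058 and 0.064. Under scaling probe by probe to spike-ins the changes of Zbtb41, Zbtb44, Zbtb8a, Zbtb37 and Zbtb26 turned negative, between −0.040 and −0.27. The 15 genes had adjusted p between 0.0038 and 0.043.

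**Figure D3:**
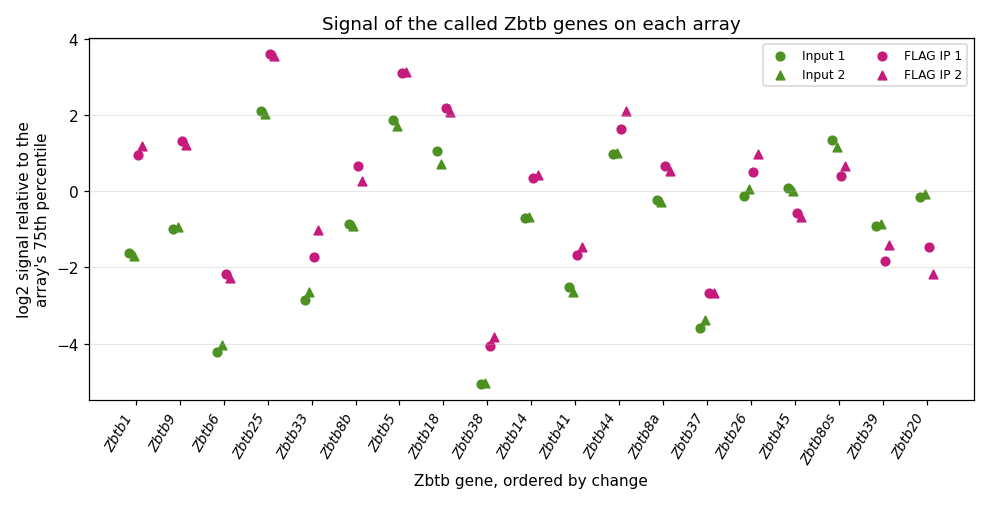
Log2 signal, scaled to each array's 75th percentile (vertical axis), for the 19 called Zbtb genes in order of their change; green marks Input and pink FLAG IP, with a circle for replicate 1 and a triangle for replicate 2. In each of the 15 genes called higher both FLAG IP points lie above both Input points, and in each of the 4 called lower both lie below; the levels of different genes come from different probes and are not comparable.

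Zbtb20 was the member with the largest decrease. It encodes a repressor that silences the alpha-fetoprotein gene in the liver and acts in hippocampal development. Its levels were −0.16 and −0.08 in the Input and −1.47 and −2.16 in the FLAG IP, so both FLAG IP arrays lay below the Input by more than 2-fold, which held for 5.28% of all tested features. It fell by 1.70 ± 0.26 (3.24-fold lower, adjusted p = 0.013), the size varied between the FLAG IP replicates, and the call was lost without either Input array. The other decreases were smaller. Zbtb39 fell from −0.91 and −0.85 in the Input to −1.83 and −1.41 in the FLAG IP, a change of −0.74 ± 0.19 (adjusted p = 0.040). Zbtb8os, the archease gene, had 1.34 and 1.17 in the Input and 0.40 and 0.67 in the FLAG IP, a change of −0.72 ± 0.17 (adjusted p = 0.032). Zbtb45 had 0.074 and −0.0026 in the Input and −0.58 and −0.68 in the FLAG IP, a change of −0.66 ± 0.14 (adjusted p = 0.024). These 3 lost their calls with the replicate number as a block, which left 12 Zbtb genes higher and 1, Zbtb20, lower.

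The 14 genes that were not called changed by between −0.36 and 0.46, with adjusted p from 0.14 to 0.89. Zbtb7a (LRF), which silences fetal globin genes, had levels of −1.06 and −0.91 in the Input and −0.29 and −0.75 in the FLAG IP, a change of 0.46 ± 0.21 (adjusted p = 0.14), and its other probe, with a change of 0.92, was not called either. Zbtb7b (ThPOK), which directs T cells to the CD4 lineage, had a change of 0.25 ± 0.14, and Zbtb32, a PLZF-like protein of lymphocytes, had 0.25 ± 0.15. Zbtb46, a marker of classical dendritic cells, had −0.06 ± 0.16, and Zbtb17 (MIZ1), the DNA-binding partner of MYC, had −0.09 ± 0.14. Among members tied to chromosome structure, Zbtb24, whose human counterpart is mutated in an immunodeficiency syndrome with unstable centromeres, had −0.05 ± 0.14, and Zbtb48 (TZAP), which binds telomeres, had 0.03 ± 0.14. The others were Zbtb12 at 0.26, Zbtb43 at 0.20, Zbtb7c at 0.10, Zbtb49 at 0.07, Zbtb3 at −0.04, Zbtb22 at −0.24 and Zbtb40 at −0.36. In 9 of the 14 the groups did not overlap, with the FLAG IP above in 6 and below in 3, and over all tested features non-overlap was common, at 29.8% above and 44.7% below.

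Where a gene had a pair of probes, the calls matched. Of 13 such genes 12 had both probes tested, and in all 12 both probes had the same call: both higher in 5 and not called in 7. Over all probes tested singly, 15.6% were called higher and 20.1% lower. The changes had the same sign in 11, the exception being Zbtb7c at 0.10 and −0.23. The size could differ: Zbtb1 had a change of 2.73 by its brightest probe and 1.10 by the other, whose levels were −2.04 and −2.17 in the Input and −1.36 and −0.66 in the FLAG IP. The direction for Zbtb1 was thus shared by both probes, and its fold was not. Zbtb26 differed the other way, at 0.79 and 1.51. The changes of the other called pairs were 1.32 and 1.17 for Zbtb5 and 1.08 and 0.81 for Zbtb14. The median difference in size between the probes of a gene was 0.29. In Zbtb37 the other probe was not well above background on any array, and averaging the 2 probes ended its call.

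**Figure D4:**
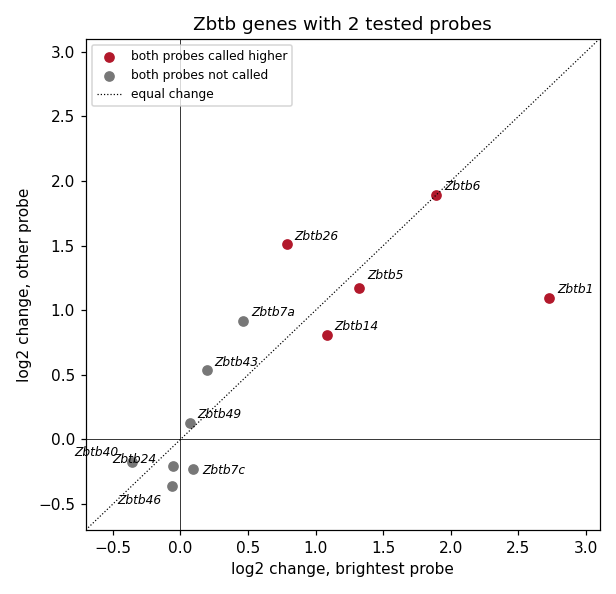
Log2 change of the brightest probe (horizontal axis) against that of the other probe (vertical axis) for the 12 Zbtb genes with 2 tested probes; red marks 5 genes with both probes called higher, grey 7 with neither called, and the dotted line is equal change. Zbtb6 lies on the line at 1.89, and Zbtb1 lies far below it at 2.73 and 1.10.

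Some Zbtb genes are neighbours in the genome. In the order of protein-coding genes of assembly GRCm38.p6 there were 5 adjacent pairs, of which 4 had both genes measured. Both members were higher in 3 pairs: Zbtb25 with Zbtb1 (1.51 and 2.73), Zbtb6 with Zbtb26 (1.89 and 0.79), and Zbtb8a with Zbtb8b (0.86 and 1.34). The remaining pair, Zbtb8os with Zbtb8a, was called in opposite directions (−0.72 and 0.86), and shares Zbtb8a with the pair before it. Of the tested Zbtb genes 45.5% were called higher, against 15.8% of all tested features. How often neighbouring genes are called together over all features was not computed, so nothing is read from these pairs. Zbtb43, not called at 0.20, lies beside Zbtb34, which had no matched probe.

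Genes that share a domain with the family gave the following values. Of 8 BTB zinc finger genes with other names 5 rose, 1 fell and 2 did not pass the test, and the median change was 0.72. Bcl6b, a repressor induced by GDNF in spermatogonial stem cells, rose by 2.39 ± 0.13 (adjusted p = 0.0038) and Zfp131 by 2.22 ± 0.17 (adjusted p = 0.0045). Hic2 rose by 0.86 ± 0.19, Mynn by 0.84 ± 0.16 and Bcl6 by 0.59 ± 0.13, whereas Hic1, a tumour suppressor gene, fell by 0.54 ± 0.15 (adjusted p = 0.049). Of 40 tested BTB genes without zinc fingers (Klhl, Kbtbd and Btbd) 10 were higher and 2 lower, with a median of 0.05, and the largest changes were in Kbtbd8 (2.18 ± 0.16) and Klhl24 (1.95 ± 0.18). Of 254 tested Zfp genes, which include Zfp131, 92 were higher and 12 lower, with a median of 0.40. The largest changes among them were in Zfp143 (3.18 ± 0.16) and Zfp941 (3.01 ± 0.28). The share called higher was thus 45.5% in the Zbtb genes and 62.5% in the 8 BTB zinc finger genes of other names. It was 36.2% in the Zfp genes and 25% in the BTB genes without fingers. The shares called lower were 12.1%, 12.5%, 4.72% and 5% in that order, and these shares were not tested against each other. Among all tested features 15.8% were called higher and 21.3% lower.

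**Figure D5:**
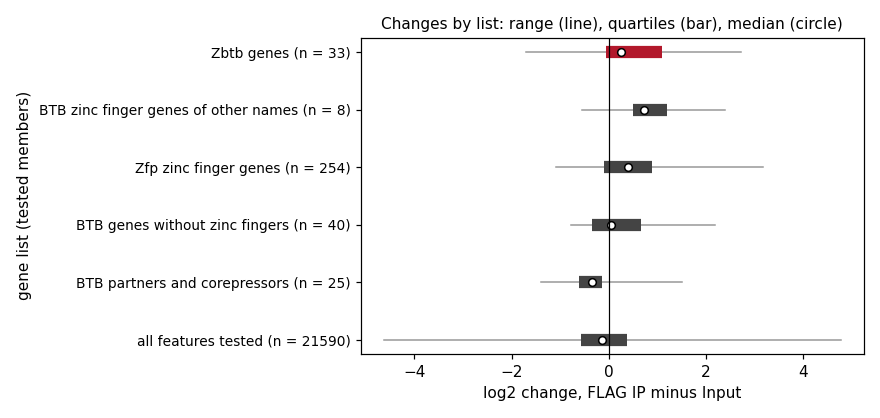
Log2 change (FLAG IP minus Input) of the tested members of each gene list, with the range as a line, the quartiles as a bar and the median as a circle. The median is 0.26 for the 33 Zbtb genes, 0.72 for 8 other BTB zinc finger genes, 0.40 for 254 Zfp genes, 0.05 for 40 BTB genes without fingers, −0.35 for 25 partners and corepressors and −0.15 for all 21590 features.

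Transcripts of the proteins that BTB domains recruit were measured on the same arrays. Of 25 tested genes for BTB partners and corepressors 3 were higher and 9 lower, with a median of −0.35. These are 12% and 36%, against 15.8% called higher and 21.3% called lower among all tested features. Bcor, the corepressor of BCL6, fell by 1.0 ± 0.19 (adjusted p = 0.020) and the deacetylase gene Hdac2 by 1.39 ± 0.38 (adjusted p = 0.046). Tbl1xr1, which encodes a subunit of a corepressor complex, rose by 1.498 ± 0.159 (adjusted p = 0.0066), and Hdac1 and Hdac9 were the other genes called higher. Ncor1 had a change of −0.20 ± 0.14, and Cul3, the ubiquitin ligase scaffold bound by other BTB proteins, of −0.35 ± 0.13 (adjusted p = 0.31 and 0.097). Of 6 genes known as partners or targets of ZBTB16 in spermatogonia, or expressed with it, 3 were higher and limma called 0 lower (1 at an unadjusted p under 0.05): Foxo1 at 2.35 ± 0.20, Gfra1 at 1.32 ± 0.18 and Etv5 at 1.02 ± 0.17. The others were not called: Sall4, its zinc finger partner, at 0.14 ± 0.18, Kit, which it represses, at −0.55 ± 0.19, and Ddit4, which it activates, at −0.26 ± 0.13.

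Cell type markers moved on the same arrays, where 15.8% of all tested features were called higher and 21.3% lower. Of 10 markers of undifferentiated spermatogonia, which share Gfra1, Etv5 and Sall4 with the genes tied to ZBTB16, 8 were higher and limma called 0 lower (0 at an unadjusted p under 0.05). Of the 10, 9 were well above background on all arrays. Ret, among the 8, was so in the FLAG IP alone and passed the filter through it. Nanos2, also among the 8, is carried by the transgene as well. The summed signal of the 10, scaled so that the 75th percentile is 1, was 4.33 and 4.45 in the Input and 17.4 and 14.1 in the FLAG IP. Of 5 general germ cell markers limma called 0 (1 higher at an unadjusted p under 0.05), with sums of 58.1 and 57.3 in the Input and 55.6 and 76.5 in the FLAG IP. Lower were 3 of 8 Sertoli markers (117.0 to 118.8 against 83.8 to 87.7), 4 of 7 Leydig markers (29.0 to 38.4 against 13.7 to 17.6; 6 of the 7 were well above background on all arrays, and Lhcgr, one of the 4, was so in the Input alone), 3 of 5 peritubular myoid markers (108.0 to 120.4 against 71.3 to 73.3) and 4 of 4 measured macrophage markers (2.67 to 2.74 against 1.11 to 1.24). For cells in which several Zbtb genes are best known, limma called 0 of 4 measured T and B lymphocyte markers (0 at an unadjusted p under 0.05; 3 of the 4 were well above background on all arrays), with sums of 0.132 to 0.133 against 0.136 to 0.140, and 0 of 4 endothelial markers (1 lower at an unadjusted p under 0.05). Of 2 measured red blood cell markers 1 was lower, Hba-a1, with a change of −1.29 ± 0.27. The sums add signals before the log, so the brightest markers carry them. In the Sertoli and peritubular myoid sums these were Clu and Acta2, with changes of −0.44 and −0.49. Neither was called (adjusted p = 0.062 and 0.051 by limma), so these sums do not show the fall of the called markers. The Input holds RNA of the testis and the FLAG IP holds the RNA recovered from it with the FLAG tag. These values thus compare the RNA recovered with the RNA put in and count no cells. The part of these cell types in the Zbtb changes was not tested.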

How the data were processed

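The authors' scanner files, 1 per array, were made with Agilent Feature Extraction 9.5, per the submitters' processing notes, and hold spot intensities: a background-subtracted processed signal per the file headers, raw median signals, and flags. The deposited table of the series is log2 of the authors' processed signal less a constant per array (within 0.01 for 99.6% of probes, 75th percentile 9.76, medians 6.18, 6.25, 6.25 and 6.15 for Input 1, Input 2, FLAG IP 1 and FLAG IP 2), and was used as an alternative. All 4 arrays share a slide and a scan, so no slide or scan block was possible.

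Control spots and outlier spots (62 to 90 per array) were left out, 0 spots were saturated, and spots of a probe were averaged on the log2 scale and scaled to each array's 75th percentile. A probe was well above background when a share of at least 0.5 of its spots had the flag. Accessions, without version, matched the RefSeq table of GRCm38.p6 for 22951 probes (55.7%), whose build differs from that of the array's design, and coordinates are left out. The brightest probe stood for a gene. Of 33377 features, the 21590 whose probe passed that flag in both replicates of the Input, of the FLAG IP or of both were tested. The test was limma's moderated one (version 3.58.1, R 4.3.3; two-sided, no covariates, Benjamini-Hochberg over all tested features), which gave all adjusted p-values here. Probes were also fitted singly (27824 tested). Members and lists were chosen with earlier results of these data known. Named are all Zbtb genes with a probe, and from each other list up to 4 genes ranked by size of change, with called genes ahead, 1 of which is not reported here. Others (Hic1, Bcl6, Bcor, Hdac9, Ncor1, Cul3, Sall4, Ddit4, Nanos2) were chosen after their values were seen. Alternatives were background correction, scaling, the dim filter, the probe rule, moderation, the replicate block, the deposited values and leaving out each array. Normexp used the files' median signals, in place of the planned mean signals, with an offset of 50.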

Additional observations from a re-analysis of the deposited data

How the results depend on the processing

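The 15 Zbtb genes called higher and the 4 called lower were the same genes under normexp background correction, quantile normalization, the filter on all arrays, trended and robust moderation, the authors' deposited values and the crossed pairing (chosen after seeing the data; 15 higher and 4 lower, against 4321 and 6497 of all features). The deposited values are the same processed signal on the same scaling, so their agreement was fixed beforehand and is no check. The filter on all arrays left the change of every tested member as it was, and could alter only its p-values. Whether arrays with the same replicate number share a preparation is not given by the labels. The correlation of same-numbered deviations was −0.38, which rests on 1 difference per group and cannot settle it. With the replicate number as a block 12 were higher and 1 lower. Without a filter on dim probes 12 were higher and 2 lower. Leaving out 1 array gave 4 to 15 higher, 0 to 4 lower and a median change of 0.29 to 0.33; a single array left in a group is assumed to vary like the other group. The median was 0.46 over single probes and 0.37 after quantile normalization. Scaling to the median of spike-in spots gave 1 higher, 1 lower and a median of −0.29. On each array, however, that median falls between neighbouring spike-in probes that lie 1.57 to 1.97 apart (log2). Scaling probe by probe was therefore added after seeing the data, and gave 2 higher, 12 lower and a median of −0.80. Setting the median change of all features to 0 after that scaling, here called less the shift, gave 9 higher, 1 lower and a median of 0.40. Less the shift, every change lies 0.15 above the value reported in the Results. All features called higher and lower were 439 and 13464 scaled probe by probe, 157 and 690 scaled to the spike-in median, 1902 and 1054 less the shift, 2269 and 2289 with the block, 977 and 707 without Input replicate 1, and 1010 and 552 without Input replicate 2.

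Changes of sign were as follows, and their cause beyond the scaling itself was not tested. Scaled to the spike-in median, the changes were −0.29 for Zbtb12 and Zbtb32, −0.35 for Zbtb43, −0.52 for Zbtb48, −0.48 for Zbtb49, −0.083 for Zbtb7a, −0.30 for Zbtb7b and −0.45 for Zbtb7c. Scaled probe by probe they were −0.80 for Zbtb12 and Zbtb32, −0.86 for Zbtb43, −1.03 for Zbtb48, −0.99 for Zbtb49, −0.59 for Zbtb7a, −0.81 for Zbtb7b, −0.96 for Zbtb7c, −0.27 for Zbtb26, −0.25 for Zbtb37, −0.040 for Zbtb41, −0.17 for Zbtb44 and −0.20 for Zbtb8a. Less the shift, where every change is 0.15 above the value reported, they were 0.058 for Zbtb17, 0.091 for Zbtb24, 0.10 for Zbtb3 and 0.083 for Zbtb46. Zbtb3 was at 0.012 after normexp, and Zbtb7c at −0.068 over the mean of its probes. With 1 array left out, ranges that crossed 0 were −0.12 to 0.0099 for Zbtb24, −0.23 to 0.14 for Zbtb3, −0.17 to 0.041 for Zbtb46, −0.036 to 0.088 for Zbtb48 and −0.10 to 0.29 for Zbtb7c.

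A slide or scan block was not run, since all 4 arrays share both. Signal over background limited Zbtb21 and the dimmer probe of Zbtb37 among the members.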
